A study of Mus musculus with 2 samples.

Results

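Axon guidance ligands and receptors were examined in cultured Nestin+ mesenchymal stromal cells from the heart and from the bone marrow. The genes were taken by name from the semaphorin (Sema3 to Sema7), plexin, ephrin, Eph, slit, Robo, netrin and Unc5 families. This gave 65 of 49585 gene rows, of which 34 encode ligands and 31 encode receptors. Both cultures came from C57BL/6 mice 7 days old that carry a green fluorescent reporter driven by regulatory sequence of the Nestin gene, and both were at passage 10. The heart cells were grown in DMEM/F12 and IMDM with N2 and B27 supplements, 20 ng/ml of EGF, 20 ng/ml of bFGF and 4 ng/ml of cardiotrophin-1. A different, previously published medium was used for bone marrow. Tissue and medium therefore cannot be told apart. With 1 library per tissue, nothing here has a replicate check, and all ratios compare these 2 libraries.

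Guidance molecules were named for steering growing axons, and they act in many tissues by pulling or pushing cells that carry the matching receptor. Semaphorins bind plexins, with neuropilins as co-receptors for most secreted class 3 members. Ephrins are held on the membrane and bind Eph receptor tyrosine kinases on the neighbouring cell. Slits bind Robo receptors, and netrins bind Unc5 receptors, Dcc and neogenin. In the heart and in bone these families are known from valve, septum and vessel development and from exchanges between osteoblasts and osteoclasts.

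The files gave levels as RPKM, that is reads scaled to gene model length and library size, so levels of different genes can be set side by side. The reads behind the values came to 64872683 for heart and 53999963 for bone marrow. Of 8 stromal marker genes, 7 in heart and 6 in bone marrow reached 1 RPKM, and their summed level was 4334 RPKM in heart and 3014 RPKM in bone marrow. Heart exceeded bone marrow by 2-fold or more for 4 of the 7 that reached 5 RPKM, and bone marrow exceeded heart for none by that much: Thy1 stood at 16.7 RPKM in heart and 0.0603 RPKM in bone marrow, Eng at 33.9 and 0.576 RPKM, Col3a1 at 1388 and 129 RPKM, and Pdgfra at 27.6 and 11.6 RPKM. Nt5e, below 5 RPKM in both, went the other way, at 0.225 RPKM in heart and 1.59 RPKM in bone marrow. Of all genes at 5 RPKM or more in a library, 7.56% were higher in heart and 9.51% in bone marrow, and 7 genes are too few to read a share. Single stromal markers thus differed between the libraries, as guidance genes did. Nes, which encodes nestin, stood at 8.74 RPKM in heart and 1.20 RPKM in bone marrow. Neurons, glia, endothelium and macrophages also carry guidance genes. Of 8 Schwann and neural crest glia markers none reached 1 RPKM in either library (summed 0.994 RPKM in heart and 0.927 RPKM in bone marrow), with Sox10 at 0 in heart and 0.00683 RPKM in bone marrow. Of 8 endothelial markers none reached 1 RPKM in heart and 1, Vwf, did in bone marrow (summed 1.00 and 1.39 RPKM), and Tie1 was at 0 in both. Of 7 monocyte and macrophage markers found, Cd14 and Lyz2 reached 1 RPKM in both libraries (summed 4.72 RPKM in heart and 4.37 RPKM in bone marrow), and Ptprc was at 0 in heart and 0.00469 RPKM in bone marrow. Of 8 neuronal markers, 1 in heart and 2 in bone marrow reached 1 RPKM (summed 4.28 and 27.8 RPKM), most of it Tubb3, a tubulin gene, at 3.80 RPKM in heart and 26.4 RPKM in bone marrow. The part of any such cells in the values below was not tested. In RNA from whole cultures, fewer cells of a type and less RNA per cell cannot be told apart.

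Guidance genes were far apart between the libraries in both directions, and more of them were higher in heart. EphA3, semaphorin 7A, semaphorin 5A, ephrin-B2, slit 3, Robo1, EphA7 and Unc5A transcripts were higher in heart, and EphA2, plexin-A2, semaphorin 3C, Unc5B and ephrin-B1 transcripts were higher in bone marrow. A gene was counted as higher when log2((heart RPKM + 1)/(bone marrow RPKM + 1)), the log2 ratio used throughout, had a size of 1 or more and the library with more transcript had at least 5 RPKM. Of 22 members that reached 5 RPKM in either library, 12 (54.5%) were higher in heart, where 7.56% of all 7659 genes at that level were. In bone marrow 5 (22.7%) were higher, where 9.51% of all genes were, and 5 members were neither. All 12 members higher in heart were below 5 RPKM in bone marrow, so each met the level filter through heart alone. Of the 5 higher in bone marrow, only Unc5b also reached 5 RPKM in heart. These shares therefore describe the members at that level and not all 65, and they are no test of a lean.

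At a floor of 1 RPKM, 16 of 40 members were higher in heart and 9 in bone marrow, where 7.77% and 9.26% of all 11357 genes were. The median log2 ratio of those 40 members was 0.57, and that of all 11357 genes was -0.11. The median size of the log2 ratio, whatever its sign, was 1.27 over the 40 members and 0.39 over all genes. In summed level, ligands made up most of the lean towards heart, with 142 RPKM in heart and 59.0 RPKM in bone marrow. Receptors summed to 243 RPKM in heart and 213 RPKM in bone marrow. These sums rest on a few abundant genes, and those of receptors join opposite differences. Epha3 stood at 67.3 RPKM in heart and 1.53 RPKM in bone marrow, and Unc5b at 18.4 and 56.3 RPKM. Of the 40, 22 reached 1 RPKM in both libraries, 11 in heart alone and 7 in bone marrow alone. The other 25 members stayed below 1 RPKM in both. Per library, the floor was met by 33 of the 40 members for heart and by 29 for bone marrow. Among all 11357 genes it was met by 10642 for heart and by 10608 for bone marrow. Genes present in a single library were therefore a larger share of the members than of all genes. Members and all genes were not matched for level.

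**Figure D1:**
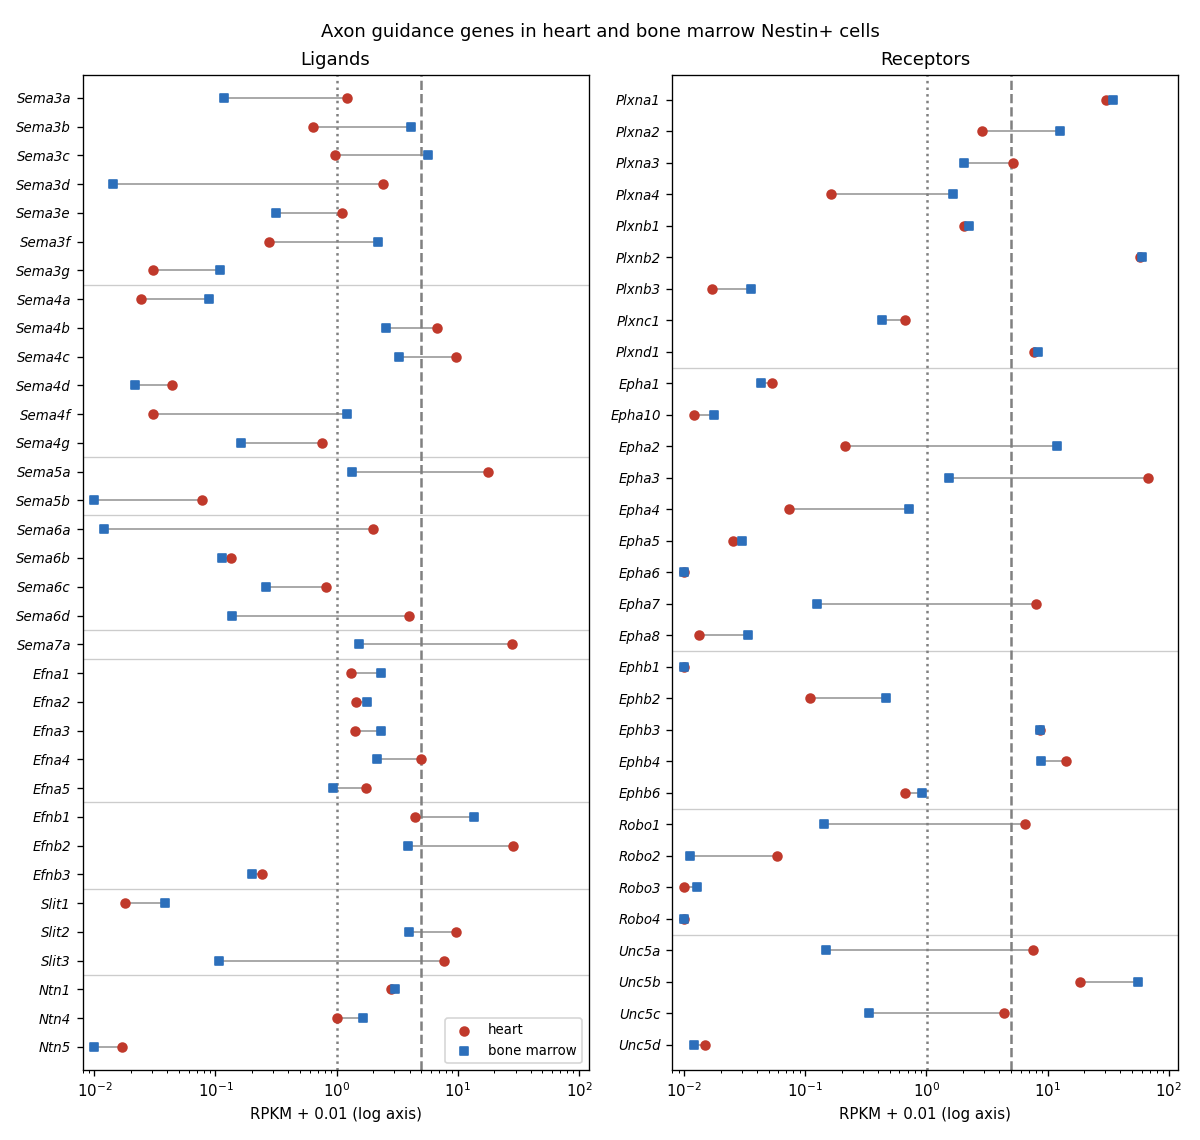
Level of each of the 65 guidance genes in heart (red circles) and bone marrow (blue squares), as RPKM + 0.01 on a log axis, with ligands on the left, receptors on the right and grey lines between families. Dotted and dashed vertical lines mark 1 and 5 RPKM; long bars such as those of Epha3, Epha2, Slit3 and Sema3d join values that lie far apart, while Plxnb2, Plxna1, Plxnd1 and Ephb3 nearly coincide.

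**Figure D2:**
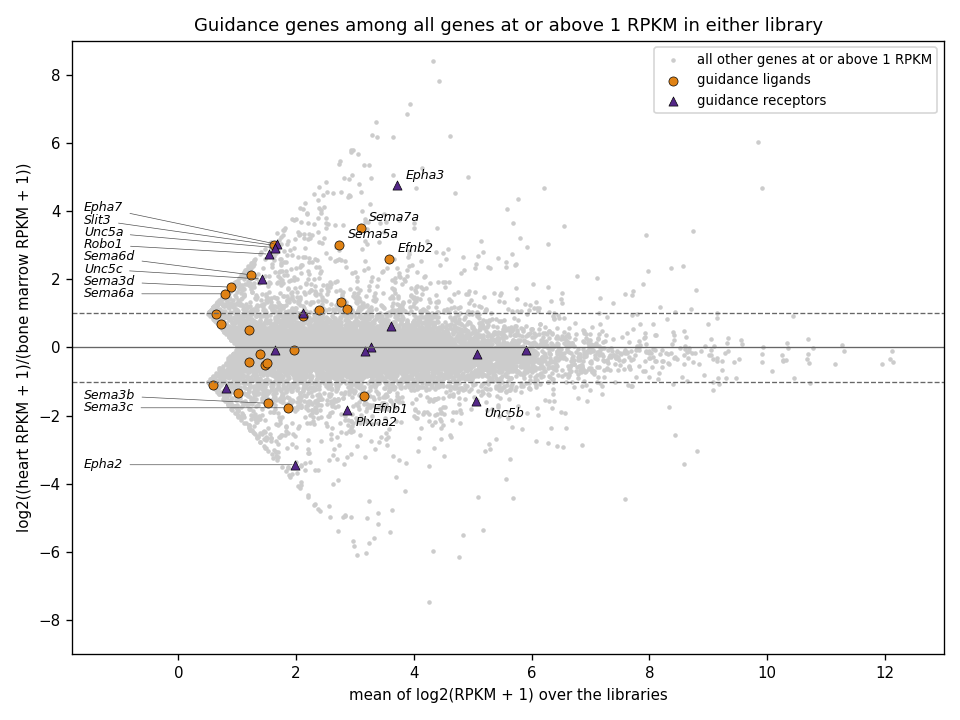
Log2 ratio of heart over bone marrow against the mean of log2(RPKM + 1), for all genes at or above 1 RPKM in either library (grey), guidance ligands (orange circles) and guidance receptors (purple triangles). Dashed lines mark log2 ratios of 1 and -1; Epha3 has a log2 ratio of 4.75 and Epha2 of -3.44, and the names of members at least 1.4 in size are printed.

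To show the start regions of the genes that differed most, the promoters of the 3 members with the highest and the 3 with the lowest log2 ratio among those counted are printed here. Each runs from 250 bases before to 50 bases after a RefSeq transcription start (GRCm38.p6), 5' to 3' on the gene's own strand. Capitals mark the GC box, GGGCGG or its reverse complement CCGCCC. Epha3 lies at chr16:63864126-63864425 (minus strand), Sema7a at chr9:57939862-57940161 (plus), Epha7 at chr4:28812881-28813180 (plus), Epha2 at chr4:141300971-141301270 (plus), Plxna2 at chr1:194619579-194619878 (plus) and Sema3c at chr5:17574566-17574865 (plus).
Epha3: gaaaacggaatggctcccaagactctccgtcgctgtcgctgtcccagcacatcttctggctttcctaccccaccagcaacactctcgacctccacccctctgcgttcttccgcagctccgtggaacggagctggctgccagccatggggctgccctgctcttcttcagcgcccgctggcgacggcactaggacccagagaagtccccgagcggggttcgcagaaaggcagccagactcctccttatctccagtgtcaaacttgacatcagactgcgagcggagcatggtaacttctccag
Sema7a: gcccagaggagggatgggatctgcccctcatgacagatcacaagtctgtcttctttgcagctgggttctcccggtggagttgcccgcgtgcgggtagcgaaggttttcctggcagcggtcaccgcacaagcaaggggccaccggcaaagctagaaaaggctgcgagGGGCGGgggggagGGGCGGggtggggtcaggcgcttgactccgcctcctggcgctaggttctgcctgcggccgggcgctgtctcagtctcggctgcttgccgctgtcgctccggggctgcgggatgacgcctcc
Epha7: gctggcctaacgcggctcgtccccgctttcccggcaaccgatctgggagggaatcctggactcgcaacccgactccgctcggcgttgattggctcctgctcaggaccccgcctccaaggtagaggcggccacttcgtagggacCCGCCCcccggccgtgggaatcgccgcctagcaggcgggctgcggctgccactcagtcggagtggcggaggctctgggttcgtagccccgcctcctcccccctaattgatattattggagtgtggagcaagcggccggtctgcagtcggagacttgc
Epha2: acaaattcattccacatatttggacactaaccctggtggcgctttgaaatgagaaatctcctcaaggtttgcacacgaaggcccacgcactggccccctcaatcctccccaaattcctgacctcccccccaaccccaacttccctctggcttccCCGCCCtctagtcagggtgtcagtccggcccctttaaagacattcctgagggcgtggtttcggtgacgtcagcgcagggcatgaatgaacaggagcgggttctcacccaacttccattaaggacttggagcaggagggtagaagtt
Plxna2: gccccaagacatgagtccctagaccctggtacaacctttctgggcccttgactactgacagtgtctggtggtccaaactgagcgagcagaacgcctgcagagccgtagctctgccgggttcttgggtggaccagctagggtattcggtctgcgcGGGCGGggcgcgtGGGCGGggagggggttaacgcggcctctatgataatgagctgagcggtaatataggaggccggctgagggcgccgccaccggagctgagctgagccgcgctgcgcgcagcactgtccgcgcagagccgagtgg
Sema3c: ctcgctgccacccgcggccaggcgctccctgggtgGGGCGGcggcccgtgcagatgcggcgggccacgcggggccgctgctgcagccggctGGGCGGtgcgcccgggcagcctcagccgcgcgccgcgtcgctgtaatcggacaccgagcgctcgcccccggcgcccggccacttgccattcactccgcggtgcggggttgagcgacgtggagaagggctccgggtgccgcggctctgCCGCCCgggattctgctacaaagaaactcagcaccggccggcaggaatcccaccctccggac
The first 3 are the genes higher in heart and the last 3 those higher in bone marrow. The RefSeq starts of Sema7a and Epha7 are those of the deposited gene models, those of Epha3 and Epha2 lie 17 and 19 bases away, and those of Sema3c and Plxna2 lie 535 and 1611 bases away. Epha3 has no GC box in this window, Epha7 and Epha2 have 1 each, Sema7a and Plxna2 have 2 each, and Sema3c has 3. None of these 6 windows holds TATAAA or its reverse complement TTTATA. A promoter was found for 56 of the 65 members. Some of these starts lie far from that of the deposited gene model, 271370 bases for Sema3a, 37064 for Sema4d and 2831 for Plxnb2. A GC box was in 40 of the 56 (71.4%), and in 35.9% of all 32544 promoters of this length, noncoding genes included. TATAAA or its reverse complement was in 2 member promoters (3.57%) and in 13.6% of all promoters. The median GC content was 64.7% over members and 53% over all promoters. Members have 1 window each, while all promoters include further starts of the same genes. The sets were not matched for gene type or GC content, so these shares are not read as a trait of guidance genes. Windows with a GC box were found among the genes higher in heart and among those higher in bone marrow.

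The Eph receptors showed the widest spread, and the libraries differed in which EphA receptor was most abundant. EphA receptors bind mainly the lipid-anchored ephrin-A ligands. Epha3 (chromosome 16, 63543538 to 63864158, minus strand), which encodes a receptor needed in mouse heart cushion development, stood at 67.3 RPKM in heart and 1.53 RPKM in bone marrow, a log2 ratio of 4.75. It was the most abundant member in heart, 534th of all genes there, and made up 88.9% of the EphA sum. Epha7 (chromosome 4, 28813131 to 28967499, plus strand) had 8.10 RPKM in heart and 0.116 RPKM in bone marrow, from 5192 and 62 reads. Its RPKM ratio of 69.7 had a counting interval of 54.3 to 91.1.

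Epha2 (chromosome 4, 141301240 to 141329384, plus strand) went the opposite way, at 0.204 RPKM in heart and 12.1 RPKM in bone marrow, from 62 and 3049 reads. Its product is an EphA receptor found on many epithelial and mesenchymal cells. Bone marrow was higher by a ratio of 59.1, with a counting interval of 46.0 to 77.3. Epha2 made up 83.2% of the EphA sum in bone marrow. Summed over the 9 EphA genes, the level was 75.8 RPKM in heart and 14.5 RPKM in bone marrow, so the total was higher in heart while the leading receptor differed. Epha4, which binds ephrins of both classes, was below 1 RPKM in both, at 0.0632 RPKM in heart and 0.713 RPKM in bone marrow (33 and 310 reads).

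EphB receptors, which bind the transmembrane ephrin-B ligands, differed less. Ephb4, the partner of ephrin-B2 known from veins, stood at 14.2 RPKM in heart and 8.81 RPKM in bone marrow, a log2 ratio of 0.63. Its RPKM ratio of 1.61 had a counting interval of 1.53 to 1.70. Ephb3 stood at 8.73 RPKM in heart and 8.66 RPKM in bone marrow. Neither was 2-fold apart. Ephb2 was below 1 RPKM in both, at 0.0990 RPKM in heart and 0.452 RPKM in bone marrow, and Ephb6, whose product lacks kinase activity, stood at 0.654 and 0.918 RPKM.

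The ephrin-B ligands exchanged places between the libraries. Efnb2, which encodes ephrin-B2, known as an arterial marker, stood at 28.4 RPKM in heart and 3.88 RPKM in bone marrow, a log2 ratio of 2.59. Efnb1, which encodes ephrin-B1, stood at 4.43 RPKM in heart and 13.6 RPKM in bone marrow, from 991 and 2534 reads, a log2 ratio of -1.43. Efnb2 therefore made up 85.9% of the ephrin-B sum in heart and Efnb1 77.0% of that in bone marrow. Efnb3 was low in both, at 0.232 RPKM in heart and 0.192 RPKM in bone marrow.

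Ephrin-A ligands were low and close together in level, and none reached 5 RPKM. Efna4 came nearest, at 4.97 RPKM in heart and 2.14 RPKM in bone marrow, with a log2 ratio of 0.93. It lay just short of both limits, and its RPKM ratio of 2.32 had a counting interval of 1.96 to 2.76. Efna5 stood at 1.73 RPKM in heart and 0.919 RPKM in bone marrow. Efna1 had 1.31 RPKM in heart and 2.31 RPKM in bone marrow, Efna2 had 1.44 and 1.77 RPKM, and Efna3 had 1.41 and 2.34 RPKM. Efna1, Efna3 and Efna4 lie next to each other on chromosome 3, with gaps of 32.8 and 10.4 kb. The log2 ratios of Efna1 and Efna3, -0.52 and -0.47, and that of Efna4 thus differed in sign within one small cluster.

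Of the 13 semaphorin genes of classes 4 to 7, which are mostly membrane-bound, 4 reached 5 RPKM in either library. All 4 of these were counted as higher in heart, where 7.56% of all genes at that level were. Each of the 4 was below 5 RPKM in bone marrow and so met the level filter through heart alone. Their count is therefore not read as a lean of these classes. The other 9 were too low to be counted in either direction. At the floor of 1 RPKM, 6 of 7 had a log2 ratio above 0, where the median over all genes at that floor was -0.11. The share of all genes above 0 was not computed. Of these 7, Sema6a and Sema6d met the floor through heart alone and Sema4f through bone marrow alone. The summed level of the 13 genes was 69.9 RPKM in heart and 10.6 RPKM in bone marrow. Sema7a (chromosome 9, 57940112 to 57962865, plus strand), whose lipid-anchored product binds plexin-C1 and beta-1 integrins, stood at 27.9 RPKM in heart and 1.53 RPKM in bone marrow, from 5976 and 272 reads. Its RPKM ratio of 18.3 had a counting interval of 16.2 to 20.7. Sema5a, which encodes a semaphorin with thrombospondin repeats, stood at 17.9 RPKM in heart and 1.34 RPKM in bone marrow, a log2 ratio of 3.01. These were the most abundant semaphorins in heart.

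The class 4 genes Sema4c and Sema4b differed more modestly. Sema4c, whose product binds plexin-B2, stood at 9.74 RPKM in heart and 3.27 RPKM in bone marrow, a log2 ratio of 1.33. Sema4b stood at 6.67 RPKM in heart and 2.55 RPKM in bone marrow, a log2 ratio of 1.11. Sema4f went the other way at a low level, at 0.0204 RPKM in heart and 1.21 RPKM in bone marrow, from 7 and 345 reads. Its RPKM was 59.2 times higher in bone marrow, with a counting interval of 28.4 to 148.

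Class 6 semaphorins, transmembrane ligands of class A plexins, reached 1 RPKM in heart alone. Sema6d, which acts in chick heart development, had 3.93 RPKM in heart and 0.128 RPKM in bone marrow, from 2692 and 73 reads. Sema6a had 1128 reads in heart and 1 in bone marrow, 1.98 and 0.00211 RPKM. Its ratio of 939 had a counting interval of 168 to 37119, wide because of the single read. Sema6c was below 1 RPKM in both, at 0.805 RPKM in heart and 0.250 RPKM in bone marrow.

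Secreted class 3 semaphorins split into opposite groups. Sema3c, needed for the outflow tract of the mouse heart, stood at 0.961 RPKM in heart and 5.69 RPKM in bone marrow, from 445 and 2193 reads, and was the single class 3 gene at or above 5 RPKM. Sema3b stood at 0.629 RPKM in heart and 4.07 RPKM in bone marrow, and Sema3f at 0.267 and 2.20 RPKM. The bone marrow excess was 5.92 times for Sema3c (counting interval 5.34 to 6.57), 6.47 times for Sema3b (5.55 to 7.58) and 8.24 times for Sema3f (6.59 to 10.4). These 3 therefore went the same way, with ratios between 5.92 and 8.24.

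Sema3d, Sema3a and Sema3e had larger values in heart but stayed below 5 RPKM. Sema3d stood at 2.42 RPKM in heart and 0.00431 RPKM in bone marrow, from 1350 and 2 reads, a ratio of 562 with a counting interval of 155 to 4644. Sema3a, which repels axons and also restrains osteoclast formation in mice, stood at 1.20 RPKM in heart and 0.107 RPKM in bone marrow, from 1077 and 80 reads. Sema3e, whose product binds plexin-D1 without a neuropilin, stood at 1.09 RPKM in heart and 0.303 RPKM in bone marrow. Position ran with direction in part: Sema3d, Sema3a and Sema3e are neighbours on chromosome 5 with gaps of 536 and 423 kb, Sema3c lies 3318 kb further on the same chromosome, and Sema3b and Sema3f lie 72.3 kb apart on chromosome 9.

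Plexins, the semaphorin receptors, were the most abundant family and on the whole differed little, with a summed level of 106 RPKM in heart and 123 RPKM in bone marrow. Plxnb2, a receptor for class 4 semaphorins, stood at 57.6 RPKM in heart and 60.6 RPKM in bone marrow. Plxna1 stood at 30.3 RPKM in heart and 35.0 RPKM in bone marrow, and Plxnd1, the receptor of Sema3e, at 7.66 and 8.28 RPKM. The log2 ratios of these 3, -0.07, -0.20 and -0.10, lay near the median of -0.14 over all genes with 5 RPKM or more in each library. Plxnb1 was also close, at 2.05 RPKM in heart and 2.23 RPKM in bone marrow.

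The class A plexins other than Plxna1 carried the differences. Plxna2 stood at 2.88 RPKM in heart and 12.7 RPKM in bone marrow, a log2 ratio of -1.82. Plxna4 stood at 0.154 RPKM in heart and 1.65 RPKM in bone marrow, below 5 RPKM in both. Plxna3 went the other way, at 5.16 RPKM in heart and 2.05 RPKM in bone marrow, with a log2 ratio of 1.01 that only just met the 2-fold rule. Plxnc1, the receptor of semaphorin 7A, stood at 0.655 RPKM in heart and 0.418 RPKM in bone marrow, and Plxnb3, a receptor of semaphorin 5A, at 0.00712 and 0.0257 RPKM. The most abundant semaphorins of the heart library thus had these plexins below 1 RPKM in the same library. Semaphorin 5A was set beside Plxnb3 alone, and Plxna1 and Plxna3 stood at 30.3 and 5.16 RPKM in heart. Whether it has another plexin partner in these cells was not tested. Itgb1, which encodes the integrin chain that semaphorin 7A also binds, stood at 362 RPKM in heart.

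**Figure D3:**
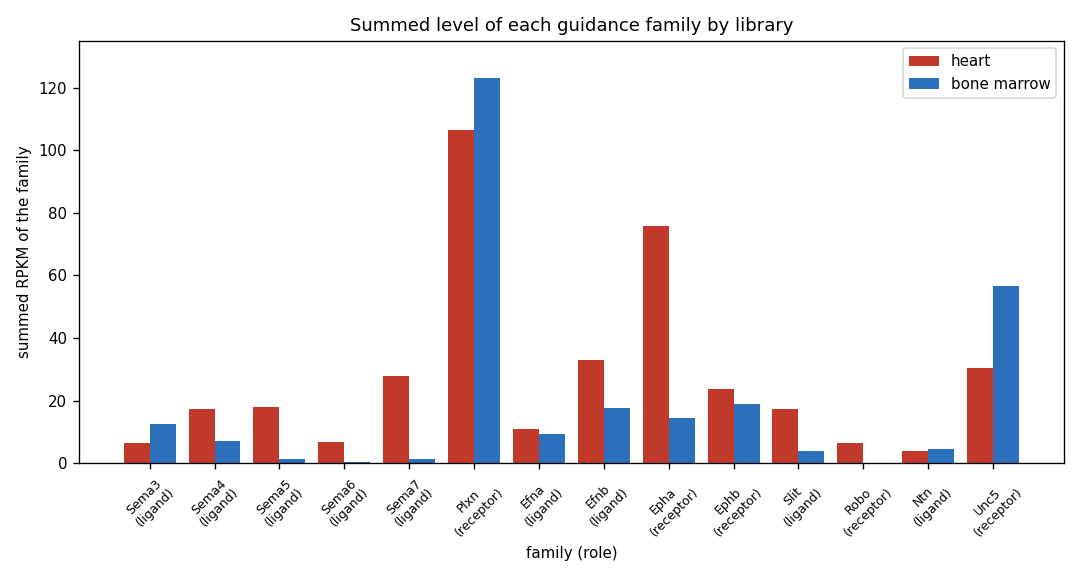
Summed RPKM of each guidance family in heart (red, left bar) and bone marrow (blue, right bar), with ligand or receptor in brackets. The plexin sums are close (106 RPKM in heart and 123 RPKM in bone marrow), the EphA sum is 75.8 RPKM in heart and 14.5 RPKM in bone marrow, and the Unc5 sum is 30.4 RPKM in heart and 56.8 RPKM in bone marrow.

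Slit2, Slit3 and Robo1 were higher in heart, so that ligands and receptor went the same way. Slits are large secreted proteins that repel cells carrying Robo receptors. Slit3 (chromosome 11, 35121224 to 35708507, plus strand), which has roles in mouse heart and diaphragm development, stood at 7.74 RPKM in heart and 0.0977 RPKM in bone marrow, from 3045 and 32 reads. Its RPKM ratio of 79.2 had a counting interval of 56.0 to 116. Slit2 was present in both, at 9.74 RPKM in heart and 3.95 RPKM in bone marrow, a log2 ratio of 1.12.

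Robo1 (chromosome 16, 72663149 to 73046095, plus strand) had 6.54 RPKM in heart and 0.132 RPKM in bone marrow, a log2 ratio of 2.74. No other Robo gene reached 1 RPKM. Robo2, its neighbour 846 kb away, stood at 0.0485 RPKM in heart and 0.00112 RPKM in bone marrow. Robo3 had 0 reads in heart and 1 in bone marrow, and Robo4, the endothelial Robo, had 0 reads in both, which allows up to 0.00872 RPKM in heart and 0.0105 RPKM in bone marrow. Slit1, better known from the nervous system, had 3 reads in heart and 9 in bone marrow.

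Netrins differed little, while their Unc5 receptors differed widely. Ntn1, which encodes netrin-1, stood at 2.80 RPKM in heart and 3.01 RPKM in bone marrow, from 1141 and 1020 reads, with an RPKM ratio of 0.931 and a counting interval of 0.855 to 1.01. Ntn4, a netrin that binds laminin, stood at 0.993 RPKM in heart and 1.65 RPKM in bone marrow. Ntn5 had 1 read in heart and 0 in bone marrow. No netrin reached 5 RPKM in either library.

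Unc5 receptors mediate repulsion by netrins and can signal cell death when no ligand is bound. Unc5b, known from blood vessels, was the most abundant in both libraries, at 18.4 RPKM in heart and 56.3 RPKM in bone marrow, a log2 ratio of -1.56. Unc5a stood at 7.65 RPKM in heart and 0.138 RPKM in bone marrow, from 2068 and 31 reads, a ratio of 55.5 with a counting interval of 39.0 to 81.9. Unc5c stood at 4.34 RPKM in heart and 0.328 RPKM in bone marrow. Unc5b made up 99.2% of the Unc5 sum in bone marrow and 60.5% in heart, where Unc5a and Unc5c supplied most of the rest. Unc5d had 3 reads in heart and 1 in bone marrow.

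The 25 members below 1 RPKM in both libraries were Sema3g, Sema4a, Sema4d, Sema4g, Sema5b, Sema6b, Sema6c, Plxnb3, Plxnc1, Efnb3, Epha1, Epha4, Epha5, Epha6, Epha8, Epha10, Ephb1, Ephb2, Ephb6, Slit1, Robo2, Robo3, Robo4, Ntn5 and Unc5d. Epha6, Ephb1 and Robo4 were at 0 in both. No direction is given for these 25. Sema4d, known from immune cells, stood at 0.0335 RPKM in heart and 0.0115 RPKM in bone marrow. Exons of 16 members overlap another gene model, 9 of them at or above 1 RPKM in either library. The overlapping genes of those 9 were all below 0.435 RPKM in both libraries. For Unc5a, the overlapping Hk3 stood at 0.00837 RPKM in heart and 0.0101 RPKM in bone marrow.

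Known ligands and receptors were then set beside each other within each library, for 45 pairs listed from general knowledge of these families. Both partners reached 1 RPKM for 17 pairs in heart and for 9 in bone marrow, of which 6 were the same pairs. The shared pairs were Sema4c with Plxnb2, Ntn1 with Unc5b, Efna2 with Epha3, Efnb1 with Ephb3, and Efnb2 with Ephb3 and with Ephb4. In heart alone, 11 pairs were present, among them Slit2 and Slit3 with Robo1, Ntn1 with Unc5a and Unc5c, Efna5 with Epha3 and Epha7, Sema6a with Plxna2 and Sema6d with Plxna1. In bone marrow alone, 3 pairs were present, Efna1 with Epha2, Sema3c with Plxnd1 and Sema3f with Plxna3. These lists depend on the limit: with 0.5 RPKM the numbers were 20 pairs in heart and 16 in bone marrow, and partners such as Efna5 (0.919 RPKM in bone marrow) and Sema3c (0.961 RPKM in heart) lay just under 1 RPKM. The numbers also depend on which pairs were listed: Sema3b is in none, Sema5a is set only beside Plxnb3, and Epha2 only beside Efna1 and Efna5. Pairs that share a partner are not independent, and the presence of both transcripts does not show that the proteins meet.

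**Figure D4:**
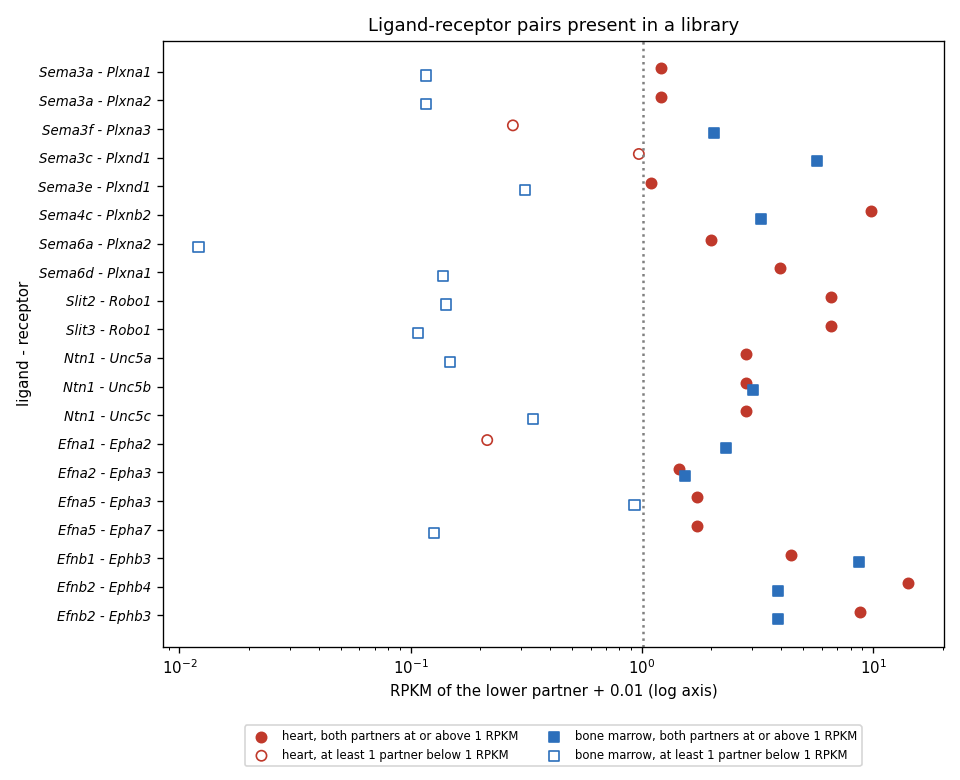
RPKM of the lower partner (plus 0.01, log axis) of each ligand-receptor pair with both partners at or above 1 RPKM in heart or bone marrow; heart is red circles, bone marrow blue squares, and open symbols have at least 1 partner below 1 RPKM (dotted line). The slit pairs with Robo1 have 6.54 RPKM in heart, and in bone marrow 0.132 RPKM for Slit2 and 0.0977 RPKM for Slit3.

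Genes that work with these families were read from 5 lists of co-receptors and signalling partners, 88 of whose 89 genes were found. Of 51 list genes at 5 RPKM or more in a library, 6 (11.8%) were higher in heart and 9 (17.6%) were higher in bone marrow, where 7.56% and 9.51% of all genes were, and the other 36 were neither. The heart count includes Plxdc1 and Plxdc2, which encode plexin domain-containing proteins that are not plexin effectors, and without them, a choice made after seeing the data, it was 4 of 49 (8.16%), near the share of all genes. The neuropilins, co-receptors of class 3 semaphorins, stood in different proportion: Nrp2 was at 9.27 RPKM in heart and 48.6 RPKM in bone marrow, and Nrp1 at 15.5 RPKM in heart and 8.90 RPKM in bone marrow. Nrp2, whose product is the main co-receptor of semaphorin 3F, was the single gene of the 4 semaphorin co-receptors and other receptors at or above 5 RPKM that was 2-fold apart. Itgb1, which encodes the beta-1 integrin chain, stood at 362 RPKM in heart and 369 RPKM in bone marrow.

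In the list of other netrin and repulsive guidance genes, heart was higher for 2 of the 4 that reached 5 RPKM, and bone marrow for 1. The shares over all genes were 7.56% and 9.51%, and 4 genes are too few to read a share. Rgmb and Rgma, which encode repulsive guidance molecules that bind neogenin and act as BMP co-receptors, were the genes higher in heart. Rgmb had 35.3 RPKM in heart and 5.78 RPKM in bone marrow, and Rgma had 14.8 and 0.879 RPKM. Neo1, which encodes neogenin, stood at 11.5 RPKM in heart and 28.4 RPKM in bone marrow. The ligand side was therefore higher in heart and the receptor higher in bone marrow. The netrin receptor gene Dcc, of the same list, had 0.00191 RPKM in heart and was at 0 in bone marrow.

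Among 11 slit-Robo partners at 5 RPKM or more in a library, none was higher in heart and 2 were higher in bone marrow. The shares over all genes were 7.56% and 9.51%, and counts this small are not read as a result about the list. Gpc1, a heparan sulfate proteoglycan gene, stood at 34.1 RPKM in heart and 182 RPKM in bone marrow, and Enah, a regulator of actin filament growth, at 1.67 and 12.8 RPKM. Of the 19 genes in the plexin list at that level, the 2 higher in heart were Plxdc1 and Plxdc2, and 3 were higher in bone marrow. Of the other 17, none was higher in heart and 3 (17.6%) were higher in bone marrow, beside 7.56% and 9.51% of all genes. Plxdc1 had 20.4 RPKM in heart and 0.525 RPKM in bone marrow, and Plxdc2 had 53.7 and 6.79 RPKM. The 3 in bone marrow were Rras2 and Mras, which encode R-Ras family GTPases, and Farp2, which encodes an exchange factor, with log2 ratios of -1.61, -1.34 and -1.42.

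Of 13 Eph effectors at 5 RPKM or more in a library, 2 were higher in heart and 2 in bone marrow. The shares over all genes were 7.56% and 9.51%, and counts this small are not read as a result about the list. Rasa1, which encodes a Ras GTPase-activating protein, stood at 58.9 RPKM in heart and 12.1 RPKM in bone marrow, and the adaptor gene Nck2 at 8.86 and 2.33 RPKM. Sipa1l1 and the exchange factor gene Vav2 had log2 ratios of -1.23 and -1.07.

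**Figure D5:**
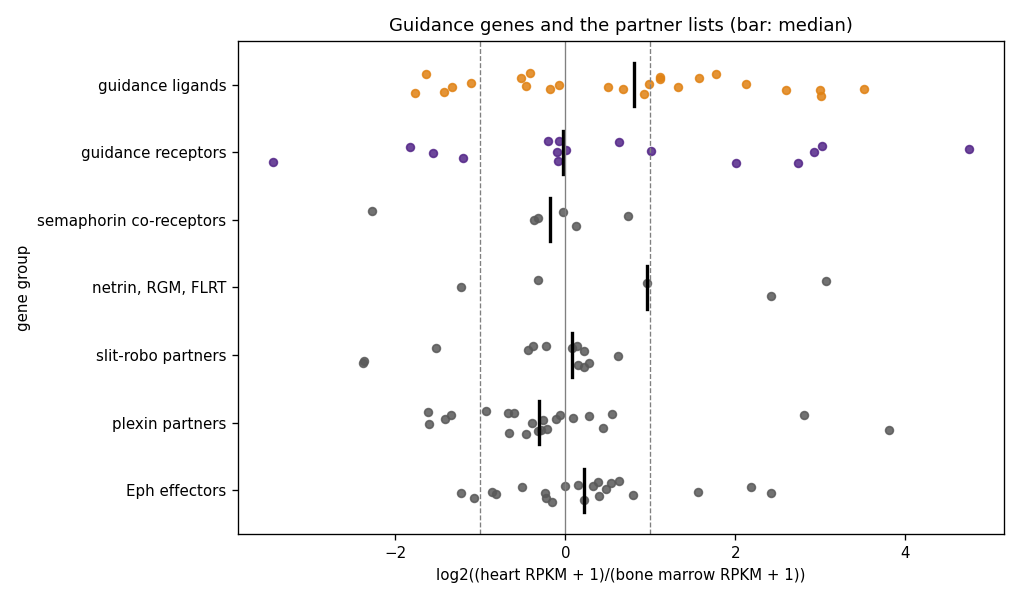
Log2 ratio of heart over bone marrow for each guidance ligand (orange), guidance receptor (purple) and partner gene (grey) at or above 1 RPKM in either library, with a black bar at each median and dashed lines at 1 and -1. The medians are 0.80 for ligands and -0.03 for receptors, whose single genes run between -3.44 and 4.75, and -0.31 for the plexin partners and 0.22 for the Eph effectors.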

How the data were processed

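Per the file headers, the authors deposited RPKM (reads scaled to the length of the gene model and to library size) for 49585 rows, each with a name, chromosome and region. Per the submitters' processing notes the genome build was mm8, but 45149 rows (91.1%) matched a GENCODE M21 model (GRCm38) in position and strand, so the files' coordinates were taken as GRCm38. Which aligner, counter and strand setting were used is not given in the sources used here. Antisense reads therefore cannot be told apart. Per the labels' protocols, 1 standard Illumina library was made from 1 ug of total RNA per tissue.

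Members were the 65 rows whose name met the naming rule of the semaphorin, plexin, Eph, ephrin, slit, Robo, netrin and Unc5 families. The members, lists and pairs were chosen with earlier results of these data known. For repeated names the row of highest mean was kept, and no member's name was repeated. Log2 ratios were computed on RPKM with 1 added in each library, which understates differences of low genes, and a gene was counted when this ratio reached 1 in either direction with 5 RPKM or more in the library it favoured. With 1 library per tissue no test was possible, and no p-value was computed.

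With the exon-union length of the matching gene model, RPKM values came in steps of 1 read, which gave 64872683 reads for heart and 53999963 for bone marrow. Reads came out whole in both libraries, within 0.02 reads, for 46 of the 65 members, and are given for these. For 9 members no model matched, and for the other 10 the values were not whole. Intervals of ratios are exact conditional Clopper-Pearson 95% intervals. Intervals, and floors of 3 reads, reflect counting error alone, since reads lacking molecular identifiers are not independent molecules.

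A further list of partner genes is not reported here. Members that reached 1 RPKM in either library were named with both values, and of each partner list the genes 2-fold apart and up to 3 abundant others. The alternatives changed the pseudocount (0.1 or 5), the floor (1 RPKM, 20 RPKM or no floor), the fold (4), the handling of repeated names (summed), the pair threshold, or the scaling (median ratio, upper quartile, trimmed mean of log ratios). Software was matplotlib 3.10.9, scipy 1.17.1, pandas 2.3.3 and numpy 2.4.6 under Python 3.11.15, and the calculations were tested on simulated data.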

Additional observations from a re-analysis of the deposited data

How the results depend on the processing

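No paired analysis was possible because each tissue has 1 library, and for the same reason no replicate could be left out. Of the 12 members higher in heart, 8 were counted with a pseudocount of 5 and 8 at 4-fold, and 3 with a floor of 20 RPKM. The 5 higher in bone marrow became 3 with a pseudocount of 5, 9 with a floor of 1 RPKM or with none, 1 with a floor of 20 RPKM and 1 at 4-fold. Shares of all genes were computed only at 2-fold with floors of 5 and 1 RPKM. The counts under other settings have no such share beside them and are not read as an excess over all genes. Under the scalings the heart count was 12 or 13 and the bone marrow count 5, with Efna4 the single gene added. The pseudocount of 5 ended the calls of Sema3c, Sema4b, Sema4c, Plxna3, Efnb1 and Slit2. The median log2 ratio of members ran between 0.01, with all members above 0 kept, and 1.06, with those at or above 5 RPKM. Pairs with both partners at or above 5 RPKM numbered 5 in heart and 2 in bone marrow, and with a limit of 0.5 RPKM the numbers were 20 for heart and 16 for bone marrow, so the lead of heart in pairs was smaller there. No counted member changed direction under the pseudocounts and scalings run, but none could have. A pseudocount added to both libraries keeps the sign. The scalings moved heart by at most 0.149 in log2, against log2 ratios of 1 or more in size. Of the uncounted members at or above 1 RPKM, the log2 ratios of Plxnb1, Plxnb2, Plxnd1 and Ntn1 turned from slightly negative to 0.02, 0.07, 0.03 and 0.03 under the median scaling, and that of Plxnb2 to 0.01 under the upper quartile. Depth limits genes with few reads, such as Sema6a and Sema3d in bone marrow.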

Other observations

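Some rows outside the family rule carry similar names, and were looked at after their values were seen. Slitrk6, which encodes a leucine-rich repeat membrane protein with a domain like those of slits, stood at 2.39 RPKM in heart and 0.00873 RPKM in bone marrow, and the other 5 Slitrk genes stayed below 0.127 RPKM in both libraries. Ntng2, which encodes the lipid-anchored netrin-G2, stood at 1.03 RPKM in heart and 1.54 RPKM in bone marrow. The 3 antisense rows at Plxna4 were at 0 in heart, and in bone marrow Plxna4os2, the highest of them, stood at 0.0181 RPKM beside 1.65 RPKM of Plxna4.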
